A study of Mus musculus with 6 samples.

Results

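The heat shock proteins and their J-domain partners were followed as a group of 68 genes among the 17097 genes measured on the arrays. The group holds every gene whose probe set carries a single platform symbol starting with Hspa, Hspb, Hspd1, Hspe1, Hsph1, Hsp90 or Dnaj. These symbols took in 151 probe sets of 28898 with a single symbol, and the brightest of a gene's probe sets, by its mean over the 6 arrays, stood for the gene. The members were sorted by textbook role into 9 stress-inducible, 10 constitutive cytosolic, 13 endoplasmic reticulum (ER), 7 mitochondrial, 3 muscle small heat shock protein, 18 specialised and 8 germ line genes. Hspa1a, Hsp90ab1, Hspd1, Hspb6 and Dnajb7 were not analysed here.

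The arrays compared Klf3-/- mice, which lack Krüppel-like factor 3 in every cell, with wild type (WT) littermates, 3 mice of each genotype. KLF3 is a DNA-binding repressor of transcription, and the comparison asks which transcripts change without it. The Klf3-/- mice and the WT mice were FVB/NJ males of 12 weeks, bred from heterozygous parents, fed standard chow, housed at 22 °C and given no treatment. RNA came from cells of the stromal vascular fraction of inguinal subcut fat, gated for eosinophils as live cells positive for CD45, CD11b, F4/80 and Siglec-F with high side scatter, and was hybridised to 1 array per mouse.

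Chaperones of the Hsp70 family bind unfolded stretches of protein and release them in a cycle driven by ATP. J-domain proteins deliver clients and trigger the hydrolysis of ATP, and nucleotide exchange factors such as Hsp110 reset the cycle. In heat or proteotoxic stress the transcription factor HSF1 trimerises on heat shock elements and raises the inducible members, while the constitutive members are made at all times and the ER members answer to the unfolded protein response. Heat shock transcripts are also known to climb during enzymatic digestion and sorting of tissue.

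The promoters of the members show which of them carry the binding sequence of HSF1 or the ER stress response element, and these are given for the genes on which the description turns. The promoter table of RefSeq (build GRCm38.p6), which is reference sequence and was not read from these mice, held 55 of the 68 members and 27025 genes in all. Each window ran from 250 bases before the start of transcription to 50 bases after it, 300 bases in all. A gene with several windows was counted once, as holding a motif if any of them did. A heat shock element of 2 inverted units was searched as GAANNTTC or TTCNNGAA, which read the same on both strands. It stood in 7 of 8 inducible promoters, against 17% of all genes, and in 1 of 7 constitutive, 1 of 11 ER and 1 of 4 mitochondrial promoters. The inducible genes were listed for their known response to heat, so that this share describes the list. Dnajb1 had none in the window. Each of the following sequences runs 5′ to 3′ in the direction of the gene, and the capitals mark the element. Only elements lying wholly before the start of transcription were taken for display. The 1 element of Hspb8 and further ones of the 3 in Hsph1 are therefore not shown. Dnaja4 had 2, and the nearer to its start is shown. They lie at chr17:34959321-34959356 (minus strand) for Hspa1b, chr5:149636348-149636383 (minus) for Hsph1, chr5:135887788-135887843 (plus) for Hspb1, chr9:54699493-54699528 (plus) for Dnaja4, chr3:152193846-152193873 (minus) for Dnajb4 and chr4:40722330-40722365 (plus) for Dnaja1.
Hspa1b: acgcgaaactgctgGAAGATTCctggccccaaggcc
Hsph1: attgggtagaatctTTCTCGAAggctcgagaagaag
Hspb1: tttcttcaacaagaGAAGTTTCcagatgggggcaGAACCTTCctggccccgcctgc
Dnaja4: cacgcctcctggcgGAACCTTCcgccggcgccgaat
Dnajb4: tcgttcgttcgctgTTCTAGAAagtaca
Dnaja1: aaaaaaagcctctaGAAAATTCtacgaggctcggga

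Outside the inducible list, Hspe1 at chr1:55088045-55088090 (plus strand) held 3 overlapping elements, 89 to 72 bases before its start, in an unbroken run of alternating units. A run of 3 or more such units stood in 0.662% of all genes and in 3 of 55 members, Hspe1, Hsph1 and Dnajb6. The ER stress response element, searched on both strands as CCAAT and CCACG 9 bases apart, stood in 3 of 11 ER promoters, those of Hspa5, Hsp90b1 and Dnajc3, against 0.137% of all genes. It is shown for Hspa5 at chr2:34772011-34772057 (plus), Hsp90b1 at chr10:86705624-86705670 (minus) and Dnajc3 at chr14:118937813-118937859 (plus).
Hspe1: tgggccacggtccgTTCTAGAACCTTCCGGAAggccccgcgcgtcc
Hspa5: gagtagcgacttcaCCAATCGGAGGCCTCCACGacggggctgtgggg
Hsp90b1: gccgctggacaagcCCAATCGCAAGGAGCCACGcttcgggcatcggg
Dnajc3: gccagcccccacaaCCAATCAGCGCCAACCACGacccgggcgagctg
The CACCC box is the core of the sequence that KLF factors bind. It was present on either strand in 37 of 55 members (67.3%) and in 59.8% of all genes. Among the inducible genes it was present in 5 of 8. A match describes letters in the window and says nothing of binding.

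The arrays were on no common scale as deposited, with medians up to 1.94-fold apart, and values below are log2 intensities after quantile normalisation between arrays. Klf3 itself was read by 6 probe sets. One of them had 7.33, 7.38 and 8.04 in Klf3-/- mice 1 to 3, against 8.73, 8.13 and 8.92 in WT mice 1 to 3, while the other 5 were higher in every Klf3-/- mouse than in every WT mouse, by 0.69 to 2.83 log2 units. Where these probe sets lie with respect to the disrupted site was not known here, so they do not check the genotype. A background level of 5.10 was taken from 44 olfactory receptor probe sets. Of 9 eosinophil markers measured among 12 listed, Prg3 and Ltc4s averaged above it and Siglecf, Ccr3, Epx, Prg2, Il5ra, Gata1 and Alox15 below it, while all 10 macrophage and all 11 stromal markers averaged above it. The cells are therefore called sorted cells here. In bulk RNA, fewer cells of a type and less RNA per cell cannot be told apart.

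No heat shock or J-domain gene differed between the genotypes past the threshold of the test. With limma and Benjamini-Hochberg adjustment over all 45037 probe sets, 0 of the 68 members had an adjusted p under 0.05, and the lowest was 0.868. The same held for all probe sets, of which 0% passed. The median SE of the members was 0.235 log2 units. On simulated data with the spread of these arrays the fit did not recover shifts of 1 log2 unit, the smallest simulated. Most members differed by less, so a count of 0 does not show equal levels. Of the 68 members, 27 were higher and 41 lower in Klf3-/-, and their log2 fold changes had a median of −0.10, against −0.038 over all genes. Of the members, 58 of 68 had a mean above background.

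At an unadjusted p under 0.05 there were 3 members higher in Klf3-/-, Hspb8, Dnaja3 and Dnajc12, and 3 lower, Dnajb14, Dnajb13 and Dnajc28. Over all genes 3.61% were higher and 2.47% lower at that level, 6.09% together, and read against that share the 6 of 68 members make no result of their own. Every Klf3-/- array lay above every WT array for 3 members and below for 8, where all genes gave 4.84% and 6.55%, 11.4% together. The split over all genes depended on the scaling, with 3.16% higher and 0.181% lower on values as deposited, where 1 member (Dnajc12) was higher and 0 were lower. With the replicate number as a block, Dnaja3 and Dnajb14 no longer had an unadjusted p under 0.05 and Hspbap1, lower in Klf3-/-, did. These counts also changed with single arrays. The 3 higher members became 1 without Klf3-/- 1, Klf3-/- 2, WT 1 or WT 2, and the 3 lower ones became 1 without Klf3-/- 1, WT 1 or WT 3 and 6 without Klf3-/- 2.

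**Figure D1:**
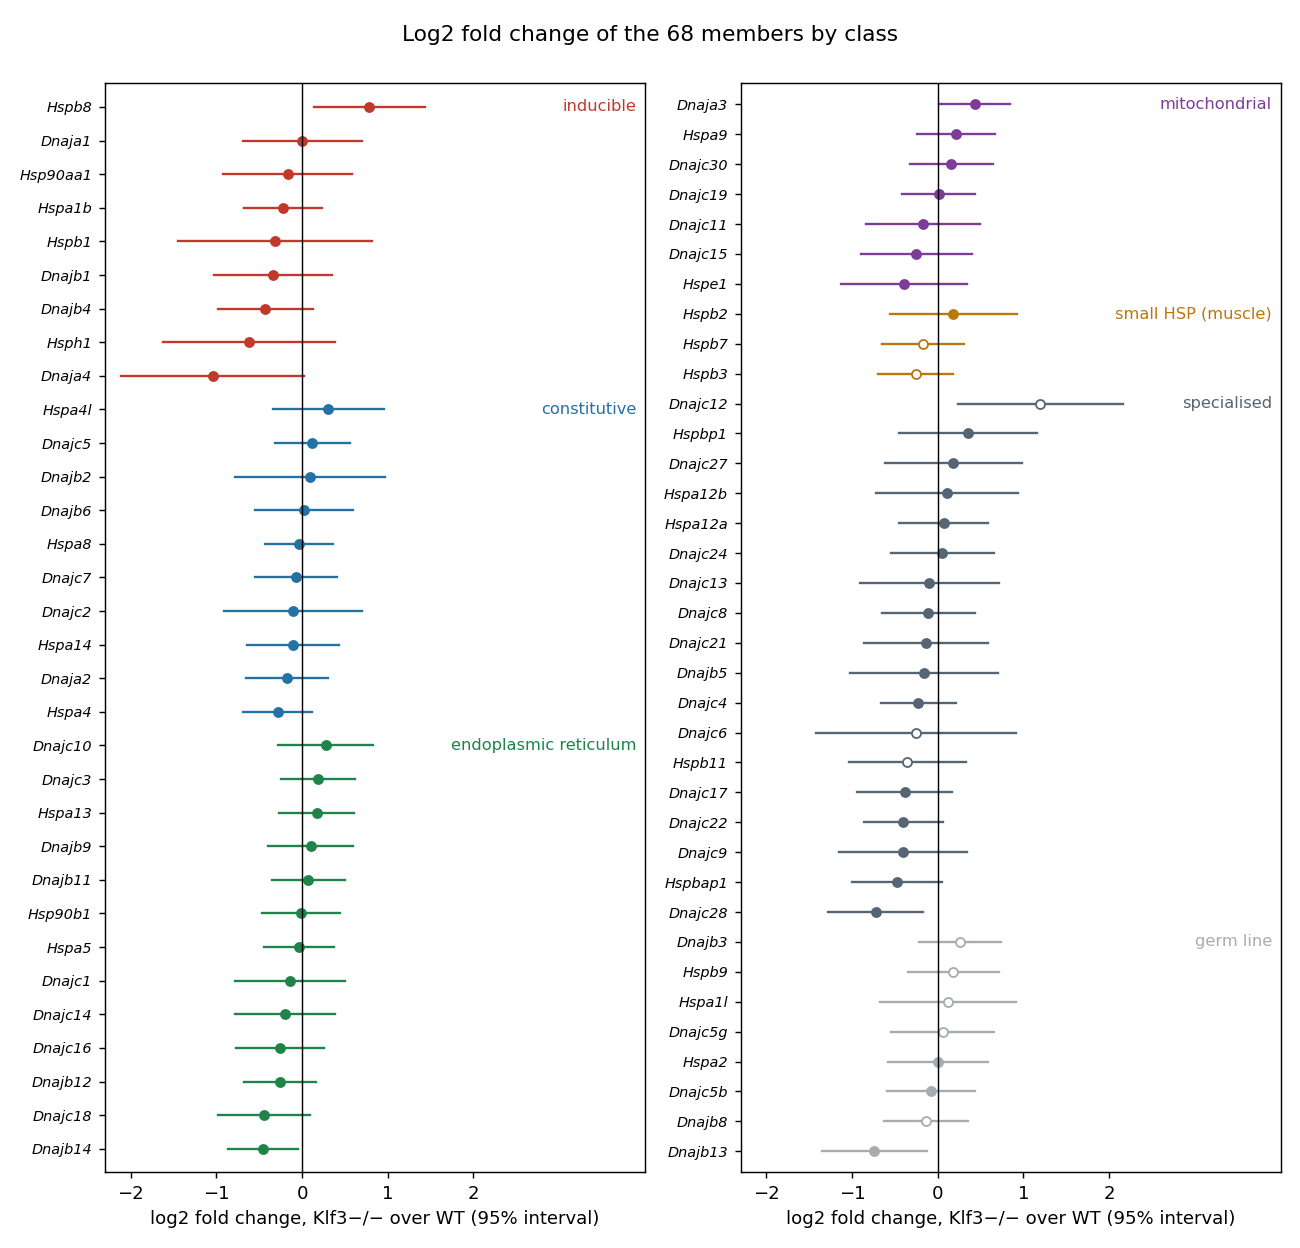
Log2 fold change of each of the 68 members, Klf3-/- over WT, with its 95% interval from limma (3 arrays per genotype), grouped by class and ordered within it; open circles are members with a mean under the background level. Most intervals cross 0, and the inducible members run from −1.04 for Dnaja4 to 0.79 for Hspb8.

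The inducible class had the median furthest from 0 among the 7 classes and the widest spread between arrays. In it 2 of 9 genes were higher and 7 lower in Klf3-/-, with a median of −0.32, and 1 of them, Hspb8, had an unadjusted p under 0.05. The highest and lowest of the 6 arrays lay a median of 1.18 log2 units apart, against 0.952 for all genes above background. The median was −0.16 without Klf3-/- 3, −0.17 without WT 1 and −0.50 without Klf3-/- 2.

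Dnaja4, a J-domain partner of Hsp70, had the lowest fold change of all members. Its level was 7.07, 8.02 and 6.56 in Klf3-/- mice 1 to 3, against 8.997, 7.80 and 7.98 in WT mice 1 to 3. The genotypes overlapped, because Klf3-/- 2 lay above WT 2 and WT 3. The log2 fold change was −1.04 ± 0.45 (SE, n = 3 per genotype, limma, adjusted p = 0.902), or 0.485-fold, and a second probe set of the gene gave −0.66.

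Hsph1, the Hsp110 that exchanges the nucleotide of Hsp70, had 9.70, 10.19 and 8.60 in Klf3-/- mice against 10.59, 9.93 and 9.82 in WT mice. Here again Klf3-/- 3 was the lowest array, WT 1 the highest and Klf3-/- 2 above both other WT mice. The difference was −0.62 ± 0.43 log2 units (SE, limma, adjusted p = 0.938), and its 95% interval reached from −1.62 to 0.38.

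Dnajb1, the main J-domain partner of inducible Hsp70, had 11.24, 11.42 and 10.49 in Klf3-/- mice and 11.67, 11.13 and 11.38 in WT mice. Hspa1b, an inducible Hsp70, had 11.27, 11.67 and 11.29 in Klf3-/- mice and 11.72, 11.52 and 11.66 in WT mice. In both genes Klf3-/- 2 was the highest Klf3-/- mouse and WT 2 the lowest WT mouse. Hspa1b and Hspa1a are nearly identical in sequence, so the Hspa1b reading may hold both. The log2 fold changes were −0.34 for Dnajb1 and −0.22 for Hspa1b (limma, adjusted p = 0.953 each). Other probe sets gave −0.28 for Dnajb1, and −0.011 and −0.23 for Hspa1b.

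Hsp90aa1, the inducible form of cytosolic Hsp90, had 9.94, 10.73 and 9.57 in Klf3-/- mice against 10.50, 10.26 and 9.997 in WT mice. Dnaja1, a J-domain protein made in most cells and raised further by heat, had 10.54, 11.06 and 10.05 in Klf3-/- mice against 10.83, 10.30 and 10.50 in WT mice. For both genes the Klf3-/- mice enclosed all WT mice, with Klf3-/- 2 the highest and Klf3-/- 3 the lowest of the 6. Hsp90aa1 averaged 10.08 ± 0.59 in Klf3-/- mice and 10.25 ± 0.25 in WT mice (SD, n = 3 each). Dnaja1 averaged 10.55 ± 0.50 in Klf3-/- mice and 10.54 ± 0.27 in WT mice (SD, n = 3 each). Dnajb4, a relative of Dnajb1, had 7.76, 8.51 and 8.004 in Klf3-/- mice against 8.64, 8.42 and 8.50 in WT mice, a difference of −0.43 ± 0.24 (SE, limma, adjusted p = 0.91). A second Dnajb4 probe set above background gave 0.017.

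Hspb8, a small heat shock protein that works with Bag3 to pass misfolded proteins to autophagy, was the one inducible member with no overlap. It had 8.73, 9.37 and 8.89 in Klf3-/- mice against 8.31, 7.77 and 8.54 in WT mice, a difference of 0.79 ± 0.28 log2 units (SE, limma, unadjusted p = 0.0236, adjusted p = 0.868). The other Hspb8 probe sets gave 0.33 and 0.057. Beside it stood the stromal markers, of which all 11 measured were higher in Klf3-/- (median 0.98). Their summed normalised intensity was 17256, 27682 and 19500 in Klf3-/- mice 1 to 3, against 10358, 12715 and 17543 in WT mice, so Klf3-/- 2 was the highest for both. The part of stromal cells in the Hspb8 difference was not tested.

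Hspb1, the mouse counterpart of human Hsp27, which holds unfolded proteins and binds actin, split by replicate number rather than by genotype. Its values were 10.21, 9.38 and 10.69 in Klf3-/- mice and 10.96, 9.48 and 10.80 in WT mice. Replicate 2 was the lowest in both genotypes, and the difference of −0.32 ± 0.48 (SE, limma, adjusted p = 0.969) was within the spread. The 6 endothelial markers had their lowest mean log2 level in replicate 2 as well, with 8.56, 6.82 and 8.85 in Klf3-/- mice and 8.32, 6.97 and 9.25 in WT mice. Their part in the Hspb1 values was not tested.

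**Figure D2:**
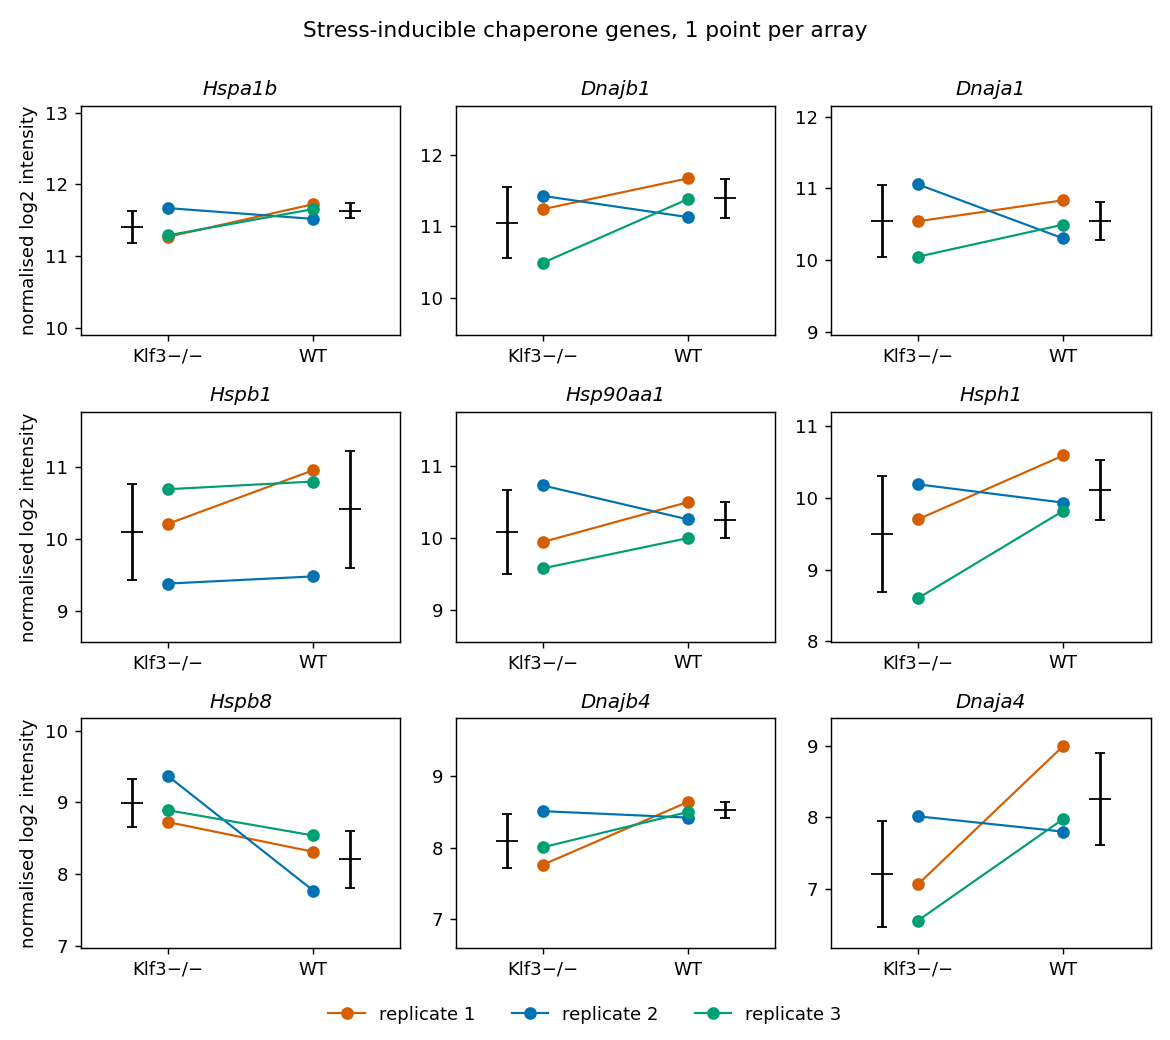
Normalised log2 intensity of the 9 inducible members in each of the 6 arrays, Klf3-/- left and WT right, with lines joining arrays of the same replicate number and bars giving the mean ± SD of 3 mice; each panel spans the same number of log2 units. The blue line, replicate 2, slopes against the other replicates in Hspa1b, Dnajb1, Dnaja1, Hsp90aa1, Hsph1, Dnajb4 and Dnaja4.

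The study used littermates and numbered the mice of both genotypes alike, so differences were also taken within each replicate number. Whether mice of the same number came from the same litter was not known here. The median difference of the inducible genes, Klf3-/- minus WT, was −0.56 in replicate 1, 0.26 in replicate 2 and −0.45 in replicate 3. In Klf3-/- the inducible genes were higher for 1 of 9, 8 of 9 and 1 of 9 in these replicates, where 46.1%, 44.7% and 45.8% of all genes were. The exceptions were Hspb8, higher in all 3 replicates, and Hspb1, lower in all 3. Dnaja4 differed by −1.93, 0.21 and −1.42.

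Seen by array, the inducible genes tended to stand apart in the same mice. For 5 of 9 the lowest of the 6 arrays was Klf3-/- 3, as it was for 16.5% of all genes, and for 6 of 9 the highest was WT 1, as it was for 13.6% of all genes. Their median deviation from each gene's mean over the arrays was −0.11, 0.28 and −0.50 in Klf3-/- mice 1 to 3 and 0.33, −0.0022 and 0.13 in WT mice 1 to 3. Klf3-/- 3 also stood apart in its macrophage markers. The summed normalised intensity of the 10 macrophage markers was 11522, 14195 and 29977 in Klf3-/- mice 1 to 3 and 14603, 8249 and 12707 in WT mice 1 to 3, and all 10 were higher in Klf3-/- by their means (median 0.48). Their part in the inducible values was not tested. The SD of the array medians within genotypes, pooled over both, was 0.300 for the inducible genes. It was 0.0682 for the constitutive and 0.0804 for the ER genes. The early response genes (Fos, Jun, Egr1 and the like), also known to climb in tissue handling, had median deviations of −0.11, 0.29 and 0.19 in Klf3-/- mice and 0.089, −0.11 and −0.15 in WT mice. So Klf3-/- 2 was the highest mouse within its genotype for both lists, while Klf3-/- 3 was low for the inducible genes and not for the early response genes. Whether handling had a part in either was not tested.

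**Figure D3:**
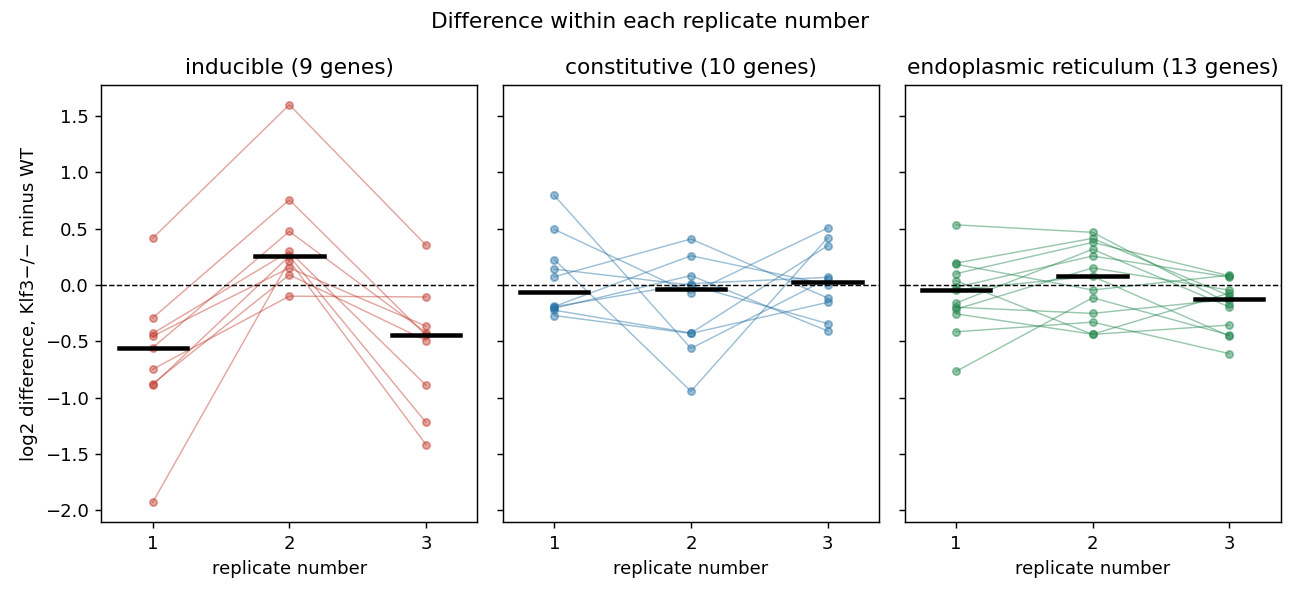
Log2 difference, Klf3-/- minus WT, within replicates 1, 2 and 3 for each inducible, constitutive and ER member (points, joined per gene), with class medians as black bars. The inducible medians lie at −0.56, 0.26 and −0.45, and those of the other classes stay between −0.13 and 0.076.

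The constitutive cytosolic chaperones had a median difference near that of all genes. Of 10 genes 4 were higher and 6 lower in Klf3-/-, with a median of −0.053, and none had an unadjusted p under 0.05. Hspa8, the housekeeping Hsc70 that folds new proteins and strips clathrin coats, had 12.25, 12.31 and 12.33 in Klf3-/- mice against 12.44, 12.30 and 12.27 in WT mice. These values span 0.19 log2 units, and the fold change of −0.039 had a 95% interval from −0.43 to 0.36 (limma). The other 3 Hspa8 probe sets gave −0.17 to 0.055.

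Hspa4, a constitutive relative of Hsph1, was the one constitutive member with no overlap by its representative probe set. It had 10.27, 10.08 and 10.25 in Klf3-/- mice against 10.54, 10.51 and 10.41 in WT mice, a difference of −0.29 ± 0.17 (SE, limma, adjusted p = 0.916). A second Hspa4 probe set above background gave 0.26 with overlapping mice. Hspa4l, its close paralogue, differed by 0.31, with 7.17, 6.75 and 7.66 in Klf3-/- mice and 6.68, 6.82 and 7.16 in WT mice. Their intervals, −0.69 to 0.12 and −0.34 to 0.96, both cross 0. Dnaja2, a J-domain protein for Hsc70, gave −0.18 by its representative probe set and −0.45 by another, whose values of 7.26, 7.35 and 7.04 in Klf3-/- mice all lay under the 7.84, 7.54 and 7.63 in WT mice.

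Among the rest of the class, Dnajc5, the cysteine string protein of secretory vesicles, was 0.12 higher and Dnajb6, a suppressor of protein aggregation, 0.024 higher on the log2 scale. Dnajc2 and Hspa14, which work together at the ribosome, each had a log2 fold change of −0.10 by their representative probe sets. In both, the highest array was WT 2 and the lowest WT 3. Other probe sets above background gave −0.39 and −0.60 for Dnajc2 and 0.37 for Hspa14. Dnajc7 and Dnajb2 gave −0.068 and 0.095.

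By the median range over the arrays, the ER chaperones showed the narrowest spread of any class. Their median range between the highest and the lowest of the 6 arrays was 0.49 log2 units, against 1.18 for the inducible class, 0.60 for the constitutive class and 0.952 for all genes above background. Of 13 genes 5 were higher and 8 lower in Klf3-/-, with a median of −0.038. Hspa5 (BiP), the Hsp70 of the ER and a standard gauge of ER stress, had 10.87, 11.05 and 11.01 in Klf3-/- mice against 11.08, 10.90 and 11.06 in WT mice. Hsp90b1 (Grp94), the Hsp90 of the ER, had 10.66, 11.06 and 10.80 in Klf3-/- mice against 10.82, 10.75 and 10.996 in WT mice. The genotypes interleaved in both genes. The fold changes were −0.038 for Hspa5 (95% interval −0.44 to 0.37) and −0.014 for Hsp90b1 (−0.47 to 0.44), and second probe sets gave 0.20 for Hspa5 and 0.12 for Hsp90b1.

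Dnajc3 (p58IPK), a BiP partner that shares the ER stress response element with these genes, differed by 0.19 ± 0.18 (SE, limma, adjusted p = 0.954). Its other 4 probe sets gave 0.017 to 0.63. Of the further BiP partners, Dnajc10 (ERdj5, a disulphide reductase) differed by 0.28, Dnajb9 (ERdj4) by 0.10, Dnajb11 (ERdj3) by 0.074 and Dnajc1 (ERdj1) by −0.14. By their representative probe sets, the mice overlapped for all 5 genes. One further Dnajc3 probe set (0.38) was higher in every Klf3-/- mouse, and one further Dnajc1 probe set (−0.52) was lower in every Klf3-/- mouse.

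Dnajb12 and Dnajb14 sit in the ER membrane and recruit Hsc70 to proteins marked for degradation. By their representative probe sets both were lower in every Klf3-/- mouse than in any WT mouse. Dnajb14 had 7.33, 7.49 and 7.35 in Klf3-/- mice against 7.74, 7.82 and 7.96 in WT mice, a difference of −0.45 ± 0.17 (SE, limma, unadjusted p = 0.0338, adjusted p = 0.876). With the replicate block its unadjusted limma p was 0.0541. Dnajb12 had 7.90, 7.76 and 7.83 in Klf3-/- mice against 8.15, 8.20 and 7.91 in WT mice, a difference of −0.26 ± 0.18 (SE, limma, adjusted p = 0.939). A second Dnajb12 probe set, under background, gave 0.028 with overlapping mice. Dnajc18, another membrane member of the class, gave −0.44, with 5.41, 6.11 and 5.60 in Klf3-/- mice and 6.18, 6.22 and 6.05 in WT mice. The mean of all Dnajc18 probe sets gave 0.13 instead.

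The mitochondrial chaperones were divided, with 4 of 7 genes higher and 3 lower in Klf3-/- and a median of 0.0095. Dnaja3 (Tid1), the J-domain partner of mitochondrial Hsp70, had 8.34, 8.42 and 8.18 in Klf3-/- mice against 7.98, 7.84 and 7.84 in WT mice. That gives 0.43 ± 0.17 (SE, limma, unadjusted p = 0.0428, adjusted p = 0.901) with no overlap. With the replicate block its unadjusted limma p was 0.0632. A second probe set gave 0.79 with overlapping mice, and another, under background, −0.038.

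Hspa9 (mortalin), the Hsp70 that Dnaja3 serves, had 9.41, 9.73 and 9.76 in Klf3-/- mice against 9.56, 9.24 and 9.45 in WT mice. Hspe1 (Hsp10), the lid of the Hsp60 folding chamber, had 10.13, 9.63 and 9.24 in Klf3-/- mice against 10.24, 10.39 and 9.57 in WT mice. The differences were 0.21 for Hspa9 and −0.40 for Hspe1 (limma, adjusted p = 0.954 and 0.949), and the mice overlapped in both genes. A second Hspe1 probe set gave −0.92. Of the 3 Hspa9 probe sets, 2 were higher and 1 lower (−0.057). Hspe1, whose promoter holds the run of heat shock elements shown above, was lowest in Klf3-/- 3, as were 5 of the inducible genes. Its highest array was WT 2. Within replicates 1 to 3 Hspe1 differed by −0.10, −0.76 and −0.33, where the inducible medians were −0.56, 0.26 and −0.45. Whether the elements had a part was not tested. Dnajc19, Dnajc15, Dnajc11 and Dnajc30, which serve protein import, membrane organisation and respiration, lay between −0.25 and 0.16 by their representative probe sets. A further Dnajc19 probe set gave 0.67.

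Of the 18 specialised members, 6 were higher and 12 lower in Klf3-/-, with a median of −0.15. Dnajc28, a J-domain gene, had 5.79, 6.40 and 6.17 in Klf3-/- mice against 7.13, 6.67 and 6.73 in WT mice, a difference of −0.72 ± 0.24 (SE, limma, unadjusted p = 0.0174, adjusted p = 0.868). By their representative probe sets Hspbap1 and Dnajc17 were also lower in all Klf3-/- mice, with differences of −0.47 and −0.39. A second Dnajc17 probe set above background gave −0.30 with overlapping mice, and Klf3-/- 2 was its highest array. Hspbap1 had 6.23, 5.76 and 6.21 in Klf3-/- mice against 6.56, 6.29 and 6.78 in WT mice. Its unadjusted limma p was 0.0715, and 0.0453 with the replicate block. Its second probe set above background gave −0.11.

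Dnajc12, known in humans as a co-chaperone of the aromatic amino acid hydroxylases, had the highest fold change of the members at 1.19 ± 0.41 (SE, limma, unadjusted p = 0.0218, adjusted p = 0.868). It had 5.40, 4.53 and 6.14 in Klf3-/- mice against 3.78, 4.35 and 4.36 in WT mice. All 3 WT mice and Klf3-/- 2 lay under the background level of 5.10, so the size of the difference was not measured on both sides. The remaining specialised genes included Dnajc8, a splicing-associated J protein, at −0.11 and Dnajc9, which chaperones histones, at −0.41. Dnajc13, which acts at endosomes, gave −0.097 by its representative probe set and 0.68 by another. Hspbp1, an exchange factor of Hsp70, gave 0.35.

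The muscle and germ line members were mostly near or under background, 2 of 3 and 5 of 8 by their means. In Klf3-/- 1 of 3 muscle genes and 5 of 8 germ line genes were higher, with medians of −0.17 and 0.030. Hspb2, a small heat shock protein of muscle, had 5.68, 4.90 and 5.76 in Klf3-/- mice and 5.13, 4.95 and 5.72 in WT mice. By their representative probe sets, Hspb7 and Hspb3 were under 5.10 in every mouse. Dnajb13, a component of sperm and cilia axonemes, had 5.63, 5.81 and 4.96 in Klf3-/- mice against 6.04, 6.28 and 6.30 in WT mice, a difference of −0.74 ± 0.26 (SE, limma, unadjusted p = 0.0238, adjusted p = 0.868). Klf3-/- 3 lay under background for this gene. Hspa2, the testis Hsp70, had equal means of 6.71 in both genotypes. Dnajb3 and Hspb9 gave 0.26 and 0.18 and were under 5.10 in every mouse.

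**Figure D4:**
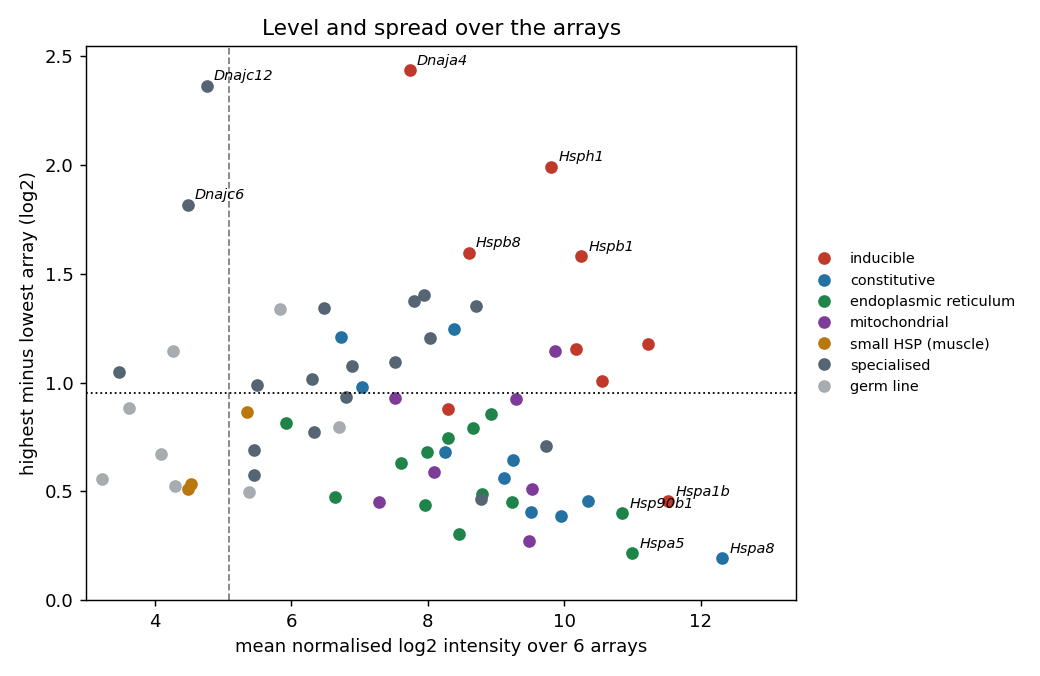
Highest minus lowest of the 6 arrays (log2) against the mean normalised log2 intensity for each member, coloured by class; the dashed line is the background level of 5.10 and the dotted line the median range of 0.952 over all genes above background. Dnaja4, Hsph1, Hspb8 and Hspb1 of the inducible class lie at ranges of 1.58 to 2.43, and Hspa8, Hspa5 and Hsp90b1 at 0.19 to 0.40.

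Other genes tied to the same pathways were read from the same fit. Of 12 HSF1 targets and chaperone partners outside the group, measured among 16 listed, 9 were higher and 3 lower in Klf3-/-, with a median of 0.22, and 1 higher at an unadjusted p under 0.05. That gene was Serpinh1 (Hsp47), the collagen chaperone of the ER, with 8.17, 9.33 and 8.26 in Klf3-/- mice against 7.40, 7.50 and 8.21 in WT mice (0.88 ± 0.37, SE, limma, unadjusted p = 0.0491, adjusted p = 0.901). Like Hspb8, it was highest in Klf3-/- 2, the mouse with the highest stromal sum. Klf3-/- 2 was the highest array for 5 of the 12 genes, Serpinh1 among them. The part of stromal cells in the Serpinh1 difference was not tested. Bag1, an exchange factor of Hsp70, was higher in every Klf3-/- mouse, with 9.33, 9.51 and 9.32 against 8.99, 9.11 and 8.96 in WT mice (0.36, limma, adjusted p = 0.91). Bag3, the partner of Hspb8, gave 0.22 and Chordc1, an Hsp90 co-chaperone induced by heat, −0.037. Ptges3, the brightest of the list, gave 0.076. The median of this list within replicates 1 to 3 was 0.33, 0.34 and 0.16, where that of the inducible genes changed sign.

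Of 19 genes of the ER unfolded protein response, 9 were higher and 10 lower in Klf3-/-, with a median of −0.034. Sdf2l1, a cofactor of ERdj3 and BiP, had 8.19, 8.17 and 8.18 in Klf3-/- mice against 8.55, 9.02 and 8.90 in WT mice (−0.64 ± 0.19, SE, limma, unadjusted p = 0.0125, adjusted p = 0.862). Ddit3 (CHOP) and Herpud1, further ER stress genes, gave −0.49 and −0.40 with overlapping mice, and Xbp1 gave 0.39. Canx, the brightest of these ER genes, gave 0.22. Of 6 mitochondrial partners 3 were higher and 3 lower, none at an unadjusted p under 0.05. Grpel2 and Clpp, with the smallest p, gave 0.31 and −0.16, and Grpel1, the brightest, gave 0.020. Of 13 early response genes measured among 14 listed, 9 were higher and 4 lower, with a median of 0.28 and none at an unadjusted p under 0.05. Jund and Ier2, which had the smallest p, were higher in every Klf3-/- mouse, by 0.55 and 0.38 (limma, adjusted p = 0.909 and 0.91). Fos, the brightest, gave 0.31 with overlapping mice.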

How the data were processed

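RNA of sorted cells from 3 Klf3-/- and 3 WT mice was labelled by the authors with a 3′ IVT Pico Kit and read on Affymetrix HT MG-430PM GeneChips. Partek Genomics Suite was used on them, and a figure legend of the study names RMA. As deposited, the table holds an intensity on a linear scale for 45037 probe sets in each mouse, without detection calls, and its normalisation steps are not given. Since array medians differed up to 1.94-fold, intensities were converted to log2 and quantile-normalised. Genotypes were compared with limma 3.58.1 (lmFit and eBayes, genotype only) in R 4.3.3, with Benjamini-Hochberg adjustment over all probe sets and a threshold of 0.05. The methods name a two-way ANOVA whose second factor is not given. Figures used matplotlib 3.10.9.

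The platform annotation gave 28898 probe sets 1 symbol, 551 several and 15588 none. All 68 member symbols matched RefSeq. The annotation names no assembly, so coordinates are given for RefSeq promoters only. Background was the 95th percentile of the mean log2 level of 44 olfactory receptor probe sets (5.10, or 34.2 linear). Members, classes and lists were chosen with earlier results of these data known. The genes named are all inducible members, of each other class the brightest and the 3 with the smallest p, and members at an unadjusted p under 0.05 or apart by 0.5 log2 units or more. From the lists of pathway and early response genes they are the 2 with the smallest p and the brightest. Further genes were named for their role after values were seen. From the marker lists only eosinophil genes were named. Arrays that shared a replicate number deviated together from their genotype means (r = 0.168, 0.225 and 0.207). Arrays of different numbers had r from −0.179 to −0.0128. Deviations from a mean of 3 arrays cancel within a genotype, so positive values for shared numbers make the others negative. The contrast is therefore no separate evidence of pairing, and whether equal numbers mark mice of the same litter was not known here. The alternatives were the replicate number as a block, leaving out each array, other scalings, array weights, trend and robust fitting, an analysis of variance, the mean of a gene's probe sets, and leaving out dim or cross-hybridising probe sets. Tested on simulated data, the fit recovered many of the larger shifts but none of 1 log2 unit. Smaller shifts, the size most members had, were not simulated. Precision is limited by 3 arrays per genotype.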

Additional observations from a re-analysis of the deposited data

How the results depend on the processing

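No member passed an adjusted p of 0.05 under any of the 15 alternatives, and the lowest adjusted p of a named member was 0.540. Of 31 named members, 22 kept the direction of their fold change in every alternative that could be run. With the replicate block, members at an unadjusted p under 0.05 were 2 higher and 3 lower (all genes 4.45% and 3.50%) and the inducible median stayed at −0.32. The block took Dnaja3 and Dnajb14 out of these members and brought Hspbap1 in, and no call at an adjusted p under 0.05 changed.

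The 3 members higher at an unadjusted p under 0.05 became 1 on values as deposited, with probe sets above background, with the mean of a gene's probe sets and by analysis of variance, and 1 to 2 with an array left out. The 3 lower members became 0 on values as deposited (where all genes gave 3.16% higher and 0.181% lower) and 1 to 6 with an array left out. On values as deposited the median of all probe sets was 0.13, against −0.032 after normalisation. The constitutive median was then 0.12 and the ER median 0.11, and the ER median was 0.061 with the mean of probe sets. The inducible median kept its sign throughout, from −0.50 without Klf3-/- 2 to −0.13 as deposited.

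Some fold changes changed sign. On values as deposited Hspa8 was 0.048, Dnaja2 0.018, Hspa5 0.11 and Dnajc8 0.092. With the mean of probe sets Hspa5 was 0.081 and Dnajc18 0.13. Dnaja1 was −0.068 centred on array medians and −0.11 with array weights. With an array left out, the range was −0.79 to 0.039 for Hspb1 (above 0 without Klf3-/- 2), −0.50 to 0.083 for Hsp90aa1 (above 0 without Klf3-/- 3), −0.26 to 0.25 for Dnaja1, −0.068 to 0.014 for Hspa8, −0.095 to 0.017 for Hspa5, −0.27 to 0.082 for Dnajc8 and −0.19 to 0.21 for Hspa2. The cause was not tested.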
